A study of Mus musculus with 6 samples.

Results

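The homeobox genes Otx1, Otx2, Gbx1, Gbx2, Six3, Hesx1, En1 and En2, which mark successive anterior-posterior territories of the early neural plate, were followed in RA-treated mouse NMPs. They were found by exact gene symbol in the deposited tables, where these 8 genes of 20631 have 11 transcripts of 30352 (4 for Otx2 and 1 for each of the others). NMPs (neuromesodermal progenitors) are caudal cells with potential for both spinal cord and presomitic mesoderm. They had been derived from mouse ESCs with bFGF followed by bFGF with the WNT agonist CHIR99021, and were then kept for 2 h in medium without either factor but with the DMSO vehicle, 25 nM RA (retinoic acid) or 1 µM RA. Whole-transcriptome RNA-seq was done on 2 samples per condition, which were separate culture dishes that the study calls technical replicates. The p-values therefore measure the spread between dishes and not between independent experiments. The labels give the strain of all 6 samples as 129 R1, whereas the study's methods name C57BL/6 ESCs, so the strain is uncertain. ESCs had been kept on fibroblast feeders. The depth was 31753556 to 42029348 estimated counts per sample.

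Otx2 and Gbx2 encode transcription factors that repress each other in the early neural plate. Otx2 is needed for forebrain and midbrain, Gbx2 is needed for anterior hindbrain, and the limit between their domains places the isthmic organizer, a source of FGF8. En1 and En2 are expressed on both sides of that limit, whereas Six3 and Hesx1 belong to the most anterior neural plate. RA is a posteriorizing signal for the neural plate.

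Gbx2 and Otx2 moved in opposite directions within 2 h of RA treatment. Gbx2 rose from an RPKM (reads normalized to transcript length and to the reads of the sample) of 1.80 ± 0.0222 (SD, n = 2) with DMSO to 15.7 ± 0.0993 with 25 nM RA and 22.8 ± 0.738 with 1 µM RA. Otx2 fell from 28.1 ± 0.929 with DMSO to 20.3 ± 0.967 and 19.4 ± 0.639. Otx1, the second Otx gene, was close to the limit of detection and fell at 1 µM RA, a call that rested on single samples. En2 did not pass the test in either comparison, and Gbx1, Six3, Hesx1 and En1 had so few reads that the filter on low counts removed them.

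The sequences before the starts of Gbx2 and Otx2 are given first, since these genes carry the changes. They are RefSeq sequences of the GRCm38.p6 (mm10) assembly, written 5′ to 3′ on the strand of the gene. RefSeq windows of 250 bases before the start were present for 5 of the 8 genes. Each window was searched on both strands for the nuclear receptor half-sites AGGTCA and AGTTCA and their direct repeats, the OTX core TAATCC, the homeodomain core TAATTA, the TCF/LEF motif CTTTGAT and a T-box half-site. The CCAAT box, the TATA box (TATAAA) and the GC box (GGGCGG) were searched for as well. Gbx2 has a single start in the files, and the 247 bases at chr1:89931180-89931426 on the minus strand lie before it and outside the annotated exons of Gbx2. The capitals mark the GC box GGGCGG, which was the one motif found.

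Gbx2: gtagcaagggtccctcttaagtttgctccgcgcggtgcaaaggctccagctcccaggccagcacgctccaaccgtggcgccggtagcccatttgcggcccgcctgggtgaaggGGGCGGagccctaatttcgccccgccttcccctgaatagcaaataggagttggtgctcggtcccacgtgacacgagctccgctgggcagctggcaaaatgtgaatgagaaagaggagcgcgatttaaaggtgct

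The GC box lies 137 to 132 bases before the start and is a common motif, present in 32.7% of all 32841 windows of this kind. Neither half-site is in this window. AGGTCA is in 14.0% and AGTTCA in 11.8% of all windows, so the absence of these letters is the usual case. The study reports a conserved RA response element near Gbx2, located with published data on receptor binding. An element outside the 250 bases searched, or with other letters, would not be found here. For Otx2, 250 bases before its most distal start, at chr14:48667645-48667894 on the minus strand, overlap no annotated exon. The capitals mark a TATA box letter match TATAAA, 192 to 187 bases before the start, a homeodomain core TAATTA, 141 to 136 bases before it, and a half-site AGTTCA, 128 to 123 bases before it. TATAAA is in 12.4% of all windows.

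Otx2 distal start: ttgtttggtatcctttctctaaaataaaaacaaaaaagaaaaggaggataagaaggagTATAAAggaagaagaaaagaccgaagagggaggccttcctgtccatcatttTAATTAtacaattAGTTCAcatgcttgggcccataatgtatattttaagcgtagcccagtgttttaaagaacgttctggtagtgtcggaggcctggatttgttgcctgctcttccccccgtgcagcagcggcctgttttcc

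The core TAATTA, which reads the same on both strands, is in 4.84% of all windows. The window of a middle Otx2 start holds 3 copies of it as well as 1 OTX core TAATCC, which is in 6.25% of all windows. That window overlaps annotated exons of Otx2, and only the 26 bases with the nearest pair of cores are shown. These bases are at chr14:48665258-48665283 on the minus strand, with the cores in capitals. They lie 174 to 149 bases before the middle start. A match of letters is a description of the sequence and not a binding site.

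Otx2 middle start: TAATTAattctcggacgaggTAATTA

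In the DMSO samples the 8 genes covered a wide range of levels. Otx2 was the highest at 28.1 RPKM, above 88.3% of all genes. Gbx2 followed at 1.80 RPKM, above 51.1% of all genes, and the difference between them was far larger than the spread between dishes. The other 6 genes were all at or below 0.200 RPKM. En2 had 0.200 ± 0.0106, Otx1 0.165 ± 0.00908, Gbx1 0.120 ± 0.0374, Hesx1 0.0739 ± 0.0163, En1 0.0329 ± 0.00725 and Six3 0.0170 ± 0.00584. From En2 downwards, the exact Poisson 95% intervals of neighbours in this order overlap, so their order is not established at this depth. For instance, the interval was 0.154 to 0.254 RPKM for En2 and 0.120 to 0.222 RPKM for Otx1. These intervals cover counting error only.

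**Figure D1:**
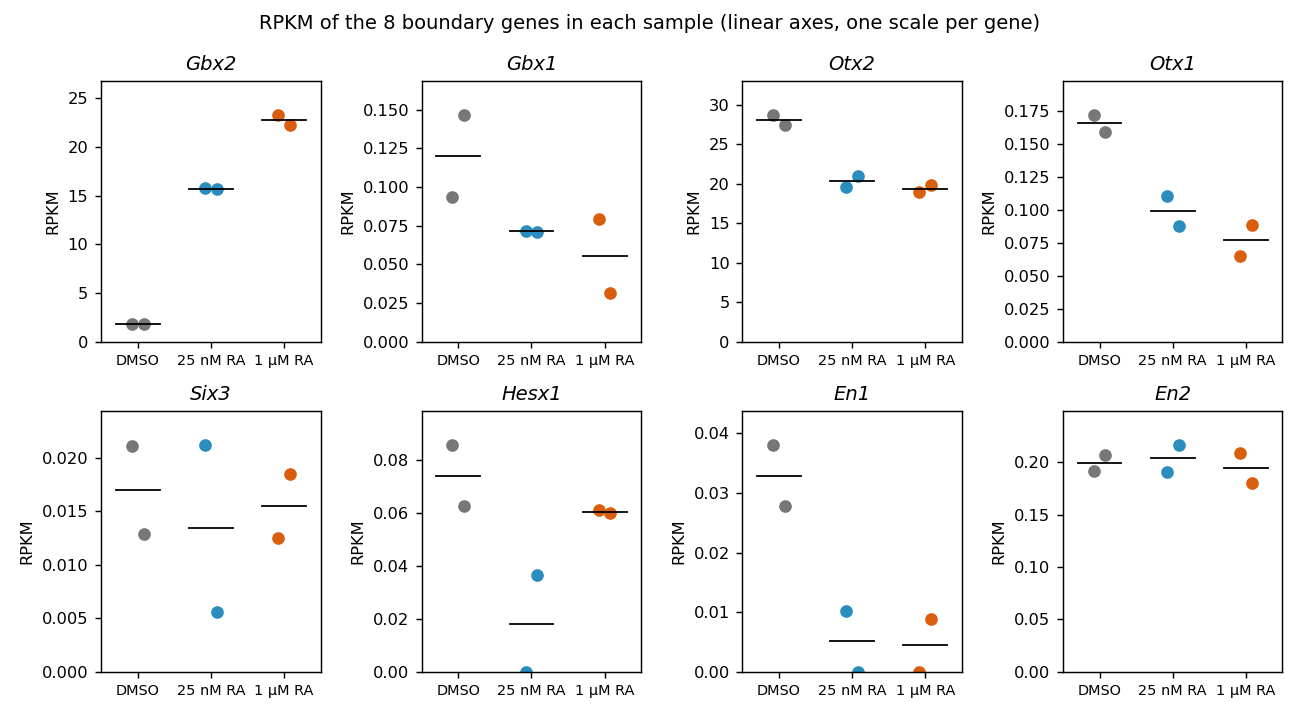
RPKM (y axis, linear from 0, with its own scale for each gene) of the 8 genes in DMSO, 25 nM RA and 1 µM RA (x axis). Points are the 2 samples of a condition and bars their mean. Gbx2 rises from 1.80 to 15.7 and 22.8 while Otx2 falls from 28.1 to 20.3 and 19.4, and the panels of Six3, Hesx1 and En1 show at most 5 reads per sample.

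Gbx2 (NM_010262, minus strand, chr1:89927962-89931176) had estimated counts of 195 and 163 with DMSO, 1292 and 1610 with 25 nM RA, then 2148 and 2078 with 1 µM RA. In RPKM the samples were at 1.78 and 1.81, at 15.8 and 15.7, and at 23.3 and 22.2. The 3 conditions do not overlap, and the dishes of a condition lie close together. The log2 fold change was 3.13 with a standard error (SE) of 0.093 at 25 nM RA and 3.66 (SE 0.092) at 1 µM RA, which are 8.73-fold and 12.6-fold increases. The adjusted p of edgeR's quasi-likelihood test was 7.7e-15 and 2.2e-16. The likelihood ratio test, which served for all calls below, gave still smaller values. A gene was called at an adjusted p under 0.1. Among the 15143 genes tested Gbx2 had the 12th highest log2 fold change at 25 nM RA and the 10th highest at 1 µM RA.

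The additional rise of Gbx2 between the doses was tested directly. It was 1.44-fold, a log2 fold change of 0.53 (SE 0.057), with an adjusted p of 6.3e-17 by the likelihood ratio test and 2.5e-05 by the quasi-likelihood test of edgeR. On the log2 scale most of the response of Gbx2 was present at 25 nM RA. Rarb, a receptor gene known as a direct target of RA, had a log2 fold change of 4.53 (SE 0.19) at 25 nM RA and 4.89 (SE 0.19) at 1 µM RA. Cyp26a1, which encodes an RA-degrading enzyme, went from 52.4 RPKM to 178 and 278, log2 fold changes of 1.76 (SE 0.051) and 2.40 (SE 0.050).

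Part of Gbx2 lies opposite a non-coding gene. In the GENCODE annotation exons of the antisense gene D130058E05Rik cover 946 of the 2177 exonic bases of Gbx2 (43.5%), and they also cover the sequence before its start shown above. The library kit marks strand, but whether strand was used in counting is not stated, and reads of the antisense RNA therefore cannot be told apart from those of Gbx2 in that stretch. D130058E05Rik was not analysed here. For Otx2 the antisense gene Otx2os1 covers 154 of 4221 exonic bases (3.65%), and it had between 0 and 5 reads per sample.

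Otx2 (4 transcripts, minus strand, chr14:48657677-48667644) had 28.7 and 27.4 RPKM with DMSO, 19.6 and 21.0 with 25 nM RA, then 18.9 and 19.8 with 1 µM RA. Both DMSO samples are above all 4 RA-treated samples, while the ranges of the 2 doses overlap. The log2 fold change was -0.47 (SE 0.057, edgeR adjusted p 1.3e-14) at 25 nM RA and -0.55 (SE 0.057, edgeR adjusted p 1.1e-19) at 1 µM RA. Otx2 thus retained 0.720 and 0.684 of its DMSO level. The decline stayed between -0.53 and -0.42 at 25 nM RA, and between -0.58 and -0.52 at 1 µM RA, whichever sample was left out. Between the doses Otx2 differed by a log2 fold change of -0.07 (SE 0.059, edgeR adjusted p 0.63). The dose difference found for Gbx2 was accordingly not detected for Otx2. The DMSO samples serve both doses, so these comparisons are not independent of each other.

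The relation between these 2 genes was then examined sample by sample. With DMSO, Otx2 had 16.1 and 15.1 times the RPKM of Gbx2. With 25 nM RA it had 1.24 and 1.34 times the RPKM of Gbx2. With 1 µM RA it had 0.812 and 0.891 times, so that Gbx2 was the higher gene in both of these samples. The order of these 2 genes was the same in every sample with DMSO or 25 nM RA and the opposite in every sample with 1 µM RA. Antisense reads, if counted as Gbx2, would raise its RPKM in these ratios, and their part in this order was not tested. Gbx2 made up 5.73% and 6.07% of the summed RPKM of the 8 genes with DMSO, 44.1% and 42.2% with 25 nM RA, then 54.6% and 52.4% with 1 µM RA. Whole cultures were measured, so that a change in all cells and a change in some of them cannot be told apart.

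**Figure D2:**
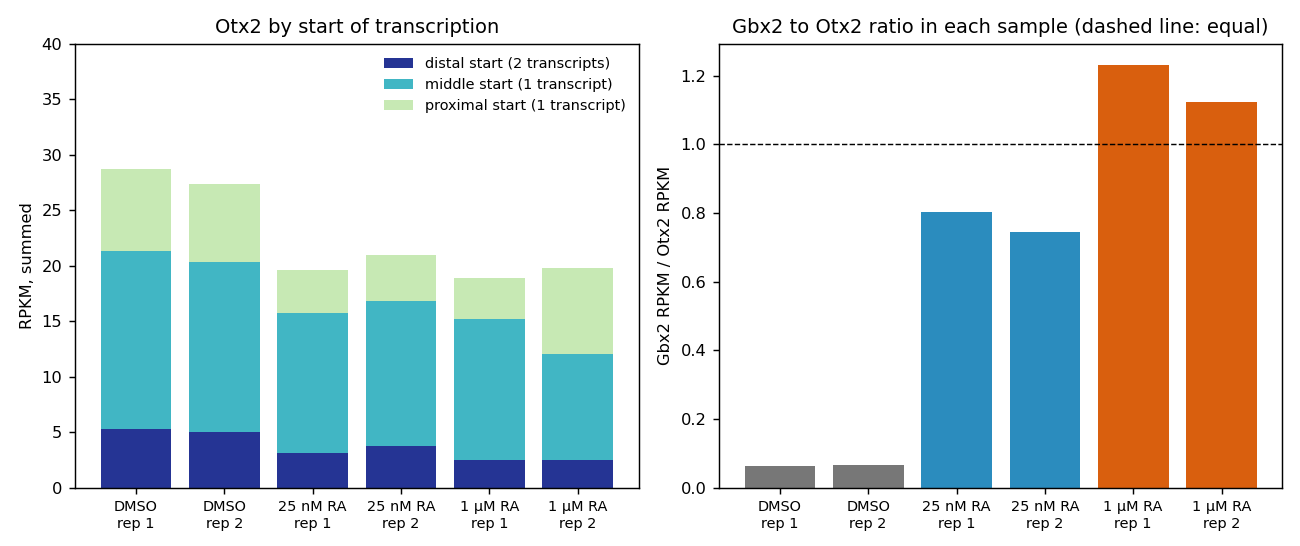
Left, RPKM of Otx2 (y axis) in each of the 6 samples (x axis), stacked by the start of its transcripts. Right, RPKM of Gbx2 divided by that of Otx2 in each sample, with a dashed line where they are equal. The ratio is 0.0620 and 0.0661 with DMSO, 0.804 and 0.745 with 25 nM RA, then 1.23 and 1.12 with 1 µM RA. The proximal part of 1 µM RA replicate 2 is larger than that of replicate 1, while the height of the whole bar is alike.

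The 4 Otx2 transcripts begin at 3 starts, and their share of Otx2 RPKM was compared next. NM_001286481 and NM_001286482 begin at the distal start, NM_001286483 at the middle start and NM_144841 at the proximal start. The middle start had the largest share in every sample, with 55.6% and 55.8% with DMSO, 64.1% and 62.2% with 25 nM RA, then 67.2% and 48.1% with 1 µM RA. The distal start had 18.5% and 18.4%, then 16.0% and 17.9%, and lastly 13.1% and 12.7%. The proximal start had 25.8% and 25.8%, then 19.93% and 19.95%, and lastly 19.7% and 39.2%. With 25 nM RA the share of the middle start was therefore higher, and that of the proximal start lower, in both samples than in either DMSO sample.

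1 µM RA replicate 2 stood apart from the other 5 samples in how the reads of Otx2 were divided between the middle and proximal starts, though not in their sum. Reads of 50 bases that fall in shared exons were assigned to transcripts by estimation, and the part of that step in this difference was not tested. Of the 22074 transcripts tested, 3.69% were called at 25 nM RA and 8.3% at 1 µM RA. At 25 nM RA none of the 4 Otx2 transcripts was called by either test of edgeR, with log2 fold changes from -0.84 to -0.29. By the likelihood ratio test of edgeR 3 of them had an unadjusted p under 0.05, NM_144841 (0.0094), NM_001286483 (0.047) and NM_001286481 (0.0499). At 1 µM RA 3 were called, NM_001286481 at -0.85 (edgeR adjusted p 0.088), NM_001286482 at -1.46 (adjusted p 0.039) and NM_001286483 at -0.50 (adjusted p 0.015). NM_144841 had -0.35 (adjusted p 0.71).

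The call of NM_001286483 at 1 µM RA was kept without either sample of that dose, with log2 fold changes of -0.73 and -0.30, but those of the others depended on single samples. Without replicate 2 NM_144841 was called at -0.96 (edgeR adjusted p 8.9e-07) and NM_001286482 was lost (-0.96, edgeR adjusted p 0.21), whereas without replicate 1 NM_001286481 was lost (-0.61, edgeR adjusted p 0.51). By the quasi-likelihood test none of the 4 was called, although the fold changes were nearly the same, such as -0.50 for NM_001286483 (edgeR adjusted p 0.16).

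The 2 transcripts of the distal start were also summed before the fit, a step added after the data were seen. Their sum was 5.33 and 5.04 RPKM with DMSO, 3.14 and 3.76 with 25 nM RA, then 2.48 and 2.52 with 1 µM RA. The conditions do not overlap. The log2 fold change of the sum was -0.59 (SE 0.16, edgeR adjusted p 0.0086) at 25 nM RA and -1.06 (SE 0.16, edgeR adjusted p 4.7e-09) at 1 µM RA. By the quasi-likelihood test of edgeR the call was kept at 1 µM RA (adjusted p 0.017) and lost at 25 nM RA (adjusted p 0.15). Between the doses it was -0.47 (SE 0.16, edgeR adjusted p 0.17). The spread of the middle and proximal starts in 1 µM RA also entered the test at 25 nM RA. Without 1 µM RA replicate 2 both starts were called at 25 nM RA, the middle at -0.29 (edgeR adjusted p 0.0097) and the proximal at -0.84 (edgeR adjusted p 2.1e-08), and without replicate 1 they were called as well.

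Otx1 (NM_011023, minus strand, chr11:21994764-22001651) had 25 and 19 reads with DMSO, 12 and 12 with 25 nM RA, then 8 and 11 with 1 µM RA. These counts correspond to 0.172 and 0.159 RPKM, 0.110 and 0.0878 RPKM, and 0.0652 and 0.0886 RPKM. Both DMSO samples are above all RA-treated samples, and the doses overlap. The log2 fold change was -0.76 (SE 0.38, edgeR adjusted p 0.28) at 25 nM RA and -1.11 (SE 0.40, edgeR adjusted p 0.032) at 1 µM RA. The call at 1 µM RA was lost without DMSO replicate 1 (log2 fold change -1.05, edgeR adjusted p 0.18) and without 1 µM RA replicate 1 (-0.92, edgeR adjusted p 0.26). It was also absent from the fit of transcripts, where NM_011023 had an edgeR adjusted p of 0.26. Between the doses the log2 fold change was -0.35 (SE 0.45, edgeR adjusted p 0.80).

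En2 (NM_010134, plus strand, chr5:28165696-28172166) had 35 and 31 reads with DMSO, 26 and 37 with 25 nM RA, then 32 and 28 with 1 µM RA. The samples of all 3 conditions overlap. The log2 fold change was 0.04 (SE 0.26, edgeR adjusted p 0.97) at 25 nM RA and -0.04 (SE 0.27, edgeR adjusted p 0.95) at 1 µM RA. The 95% interval of the ratio to DMSO, from counting error only, was 0.713 to 1.47 at 25 nM RA and 0.664 to 1.38 at 1 µM RA. A decrease of the size seen for Otx2 lies within these intervals and would not have been detectable for En2 at this depth.

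The other 4 genes had at most 9 reads in any sample and were removed by the filter on low counts. Gbx1 (NM_015739, minus strand, chr5:24504426-24526848), the paralog of Gbx2, had 7 and 9 reads with DMSO, 4 and 5 with 25 nM RA, then 5 and 2 with 1 µM RA. The ratio to DMSO was 0.603 (95% interval 0.235 to 1.45) and 0.461 (0.160 to 1.18). The upper limits of these intervals are far below the 8.73-fold and 12.6-fold rises of Gbx2. Six3 (NM_011381, plus strand, chr17:85620834-85626191) had 4 and 2 reads with DMSO, 3 and 1 with 25 nM RA, then 2 and 3 with 1 µM RA. Hesx1 (NM_010420, plus strand, chr14:27000362-27002325), which encodes a transcriptional repressor, had 5 and 3 reads, then 0 and 2, and lastly 3 and 3.

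For Six3 and Hesx1 the groups overlap or are separated by single reads. The ratio to DMSO was 0.715 (95% interval 0.148 to 3.01) at 25 nM RA and 0.878 (0.212 to 3.45) at 1 µM RA for Six3. For Hesx1 it was 0.268 (0.0277 to 1.34) at 25 nM RA and 0.790 (0.226 to 2.60) at 1 µM RA, so a change was not detectable at this depth for either gene. En1 (NM_010133, plus strand, chr1:120602487-120607991) had 5 and 3 reads with DMSO, and its RA-treated samples had 1 and 0 reads at the lower dose and 0 and 1 at the higher. Its DMSO samples do not overlap with the RA-treated samples, and its ratio to DMSO was 0.134 (0.00302 to 0.999) and 0.132 (0.00297 to 0.982). In a fit without the filter none of these 4 genes was called at either dose by edgeR's likelihood ratio test. In that fit 1 of the 4, En1, had an unadjusted p under 0.05 (0.019 at 25 nM RA and 0.018 at 1 µM RA, with adjusted p of 0.23 and 0.12), whereas by the quasi-likelihood test of edgeR it had 0.087 and 0.084.

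At 25 nM RA 2 of the 8 genes were called, Gbx2 upward and Otx2 downward, where 8.05% of the 15143 genes tested were called (4.5% higher and 3.55% lower). At 1 µM RA 3 were called, Gbx2 upward with Otx2 and Otx1 downward, where 19.7% of the genes were called (8.54% higher and 11.2% lower). Between the doses only Gbx2 of the 8 was called, where 3.41% of the genes were called. These genes were chosen with results of these data known and 4 of the 8 passed the filter, so the counts are a description. The study's criteria, which it set for transcripts, also ask for a log2 fold change above 1 or below -0.6 and a minimum RPKM. Applied here to gene sums, they were met by Gbx2 at both doses and by none of the 8 between the doses. Applied to transcripts in the fit used here, they were met by NM_010262 of Gbx2 at both doses and by no other transcript of the 8 genes. The study itself lists Otx2 as repressed at 25 nM RA and not significantly so at 1 µM RA. In the fit used here the gene sum of Otx2 was called lower at both doses, on the adjusted p alone. Its log2 fold changes of -0.47 and -0.55 did not reach the study's limit of -0.6. At 25 nM RA no single Otx2 transcript was called here. Unit and thresholds thus differ from those of the study, and the 2 results cannot be compared directly.

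**Figure D3:**
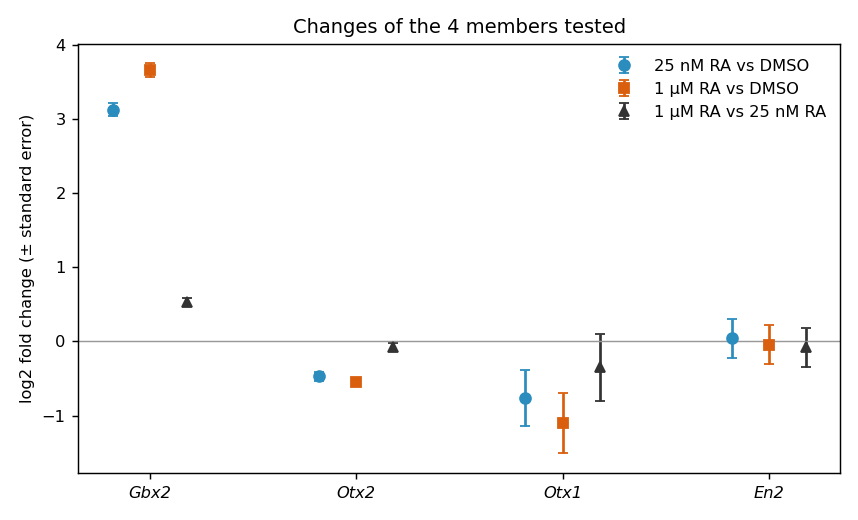
Log2 fold change (y axis, with bars of 1 standard error of the edgeR fit) of the 4 genes tested (x axis) for 25 nM RA against DMSO, 1 µM RA against DMSO and 1 µM RA against 25 nM RA. Gbx2 is at 3.13, 3.66 and 0.53 and Otx2 at -0.47, -0.55 and -0.07. Bars of Otx1 and En2 are longer, since these genes had at most 37 reads in a sample.

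The identity of the cells was checked with marker genes. With DMSO the NMP markers were at 375 ± 6.98 RPKM for T, 39.1 ± 0.250 for Nkx1-2 and 5.20 ± 0.00892 for Sox2, and 9 of 10 NMP and caudal markers were above 1 RPKM, with Cdx4 at 0.0723. Pluripotency and epiblast markers were also present, Pou5f1 at 445 ± 18.1 RPKM and Nanog at 19.3 ± 1.62, as were markers of anterior endoderm, prechordal plate and node, of which 8 of 10 were above 1 RPKM. Otx2 is known to be expressed in epiblast and in these anterior tissues as well as in neural plate. The summed RPKM of the 9 pluripotency and epiblast markers was 664 to 686 with DMSO, 650 to 689 with 25 nM RA and 664 to 675 with 1 µM RA. Of these 9, Fgf5 fell (log2 fold change -0.37, SE 0.051, at 25 nM RA and -0.44, SE 0.051, at 1 µM RA) and Pou3f1 rose (0.35, SE 0.085, and 0.31, SE 0.086).

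Some markers of anterior endoderm, prechordal plate and node fell as Otx2 did, while others did not change detectably. Their summed RPKM was 125 to 127 with DMSO, 106 to 108 with 25 nM RA and 105 to 106 with 1 µM RA. Of the 10 markers 9 were tested. At 25 nM RA 5 fell, and at 1 µM RA 6 fell, where 3.55% and 11.2% of all genes tested were called lower. The median log2 fold change of the markers was -0.35 and -0.51 beside -0.00051 and 0.0013 over all genes. The number that rose was 0 at both doses by edgeR's likelihood ratio and quasi-likelihood tests and by DESeq2, and also 0 at an unadjusted p under 0.05. Sox17, an endoderm factor, had -0.58 (SE 0.070) and -0.98 (SE 0.073). Cer1, an antagonist of Nodal and BMP, had -0.52 (SE 0.069) and -0.40 (SE 0.068). Dkk1, a Wnt antagonist, had -0.19 (SE 0.11, not called) and -0.64 (SE 0.11). Gsc, a prechordal plate gene, was at -0.02 (SE 0.057) and 0.01 (SE 0.057) and was not called. Hhex, an anterior endoderm gene, was at 0.16 (SE 0.11) and 0.17 (SE 0.11) and was not called either. The part of such cells in the decline of Otx2 was not tested.

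Of the 6 markers of committed neural cells 4 were tested, and at 25 nM RA none was called by any of these tools or had an unadjusted p under 0.05. At 1 µM RA Hes5 rose (1.00, SE 0.34) and Tubb3 fell (-0.21, SE 0.067) by both tests of edgeR, and DESeq2 called neither. Their summed RPKM was 12.2 to 12.3 with DMSO, 11.5 to 12.5 with 25 nM RA and 10.8 to 11.3 with 1 µM RA. Among 6 markers of feeder fibroblasts none was called at 25 nM RA by any of these tools, with 1 at an unadjusted p under 0.05. At 1 µM RA 3 fell by the likelihood ratio test, Col1a1, Col1a2 and Postn, where the quasi-likelihood test called 2 and DESeq2 called 0. Their summed RPKM was 5.92 to 6.24, 5.79 to 6.02 and 5.24 to 5.40. Of the 9 NMP and caudal markers tested 5 rose and 3 fell at 25 nM RA, and 4 rose and 3 fell at 1 µM RA. Those with the largest changes were Cdx1 (1.77, SE 0.085, and 1.94, SE 0.084) and Sox2 (1.56, SE 0.073, and 1.64, SE 0.073). The 3 that fell were the same at both doses. They were Evx1 (-0.70, SE 0.063, and -0.86, SE 0.064), Tbx6 (-0.37, SE 0.078, and -0.55, SE 0.080) and Sp5 (-0.36, SE 0.079, and -0.67, SE 0.080). All 10 NMP and caudal markers together had a summed RPKM of 469 to 481, 525 to 542 and 519 to 532.

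The genes that act with Otx2 and Gbx2 at the isthmus were examined next. Of 14 isthmic organizer and midbrain-hindbrain genes 9 were tested. At 25 nM RA 1 rose and 2 fell, and at 1 µM RA 2 rose and 4 fell, with a median log2 fold change of -0.03 and -0.19. Over all genes tested 8.05% and 19.7% were called, with a median of -0.00051 and 0.0013. Fgf8 is the organizer's signal and also a gene of caudal progenitors, where the study describes it as repressed by RA. It fell from 58.3 ± 1.52 RPKM to 50.7 ± 1.24 and 49.0 ± 3.19, log2 fold changes of -0.22 (SE 0.057) and -0.26 (SE 0.057). The FGF antagonist Spry1 fell as well, by a log2 fold change of -0.31 (SE 0.083) and -0.39 (SE 0.084). Il17rd, an FGF antagonist at the membrane and the nearest gene above Hesx1 in coordinates, rose by 0.22 (SE 0.049) and 0.25 (SE 0.049), and Fgf18 had 0.50 (SE 0.26, not called) and 0.87 (SE 0.24, called). Wnt1 and Pax2, which define the isthmus in the embryo, had at most 2 reads in any sample. Fgf15, a ligand expressed in the anterior hindbrain and midbrain, was also found by the study in the posterior spinal cord of embryos. It went from 7.77 ± 0.0180 RPKM to 21.9 ± 0.295 and 33.4 ± 0.113, log2 fold changes of 1.49 (SE 0.063) and 2.09 (SE 0.061).

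Other genes known from the embryonic territories on either side of the isthmus were then followed in these caudal cultures. Of 14 other forebrain and anterior neural plate genes 6 had enough reads to be tested. At 25 nM RA none was called by edgeR's likelihood ratio or quasi-likelihood test or by DESeq2, and none had an unadjusted p under 0.05. By the likelihood ratio test 1 fell at 1 µM RA, Vax1, which had a log2 fold change of -0.54 (SE 0.22, edgeR adjusted p 0.077) and was called neither by the quasi-likelihood test nor by DESeq2. Of 12 hindbrain genes 11 were tested, of which 7 rose at 25 nM RA. None fell by any of these tools, with 1 lower at an unadjusted p under 0.05. At 1 µM RA 7 rose while Egr2, a hindbrain factor, fell by a log2 fold change of -0.95 (SE 0.19). The median log2 fold change of the hindbrain genes was 1.10 and 1.16, beside -0.00051 and 0.0013 over all genes. Of all genes tested 4.5% and 8.54% were called higher. The homeobox gene Hoxa2 had 2.78 (SE 0.23) and 2.92 (SE 0.23), and the Hox cofactor gene Meis2 had 2.49 (SE 0.098) and 2.89 (SE 0.096). Meis1, Meis3 and Irx3 of the hindbrain list were not called at either dose. The study counts 3′ Hox genes among recognized RA targets in the caudal region. Whether the cells moved toward a hindbrain identity was not tested. The lists were drawn up with results of these data known.

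**Figure D4:**
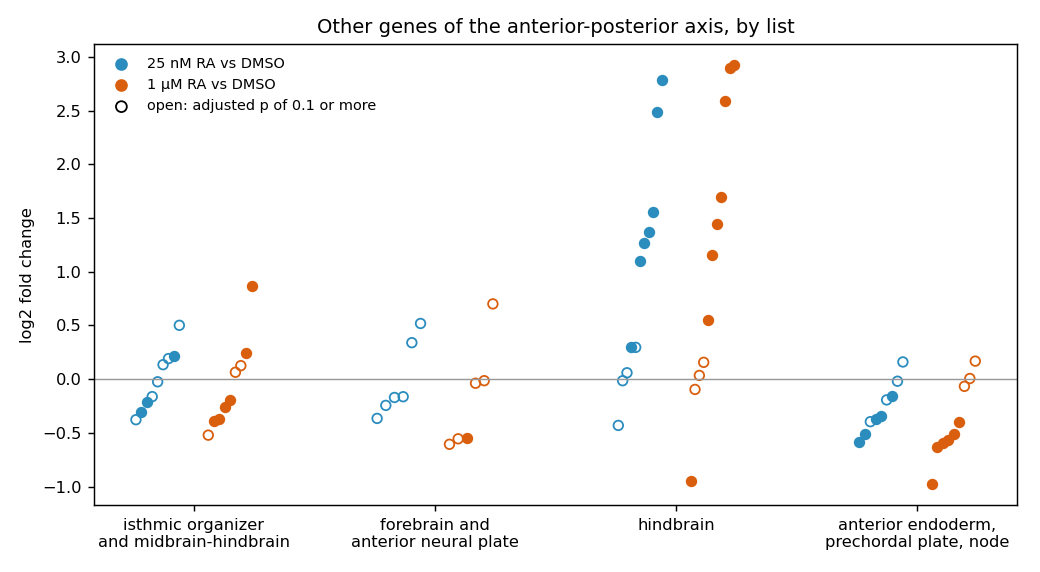
Log2 fold change against DMSO (y axis) of each tested gene in 4 lists (x axis) at 25 nM RA and 1 µM RA, in rank order from left to right within a list. Filled points have an adjusted p under 0.1 in the edgeR fit and open points do not. Hindbrain genes reach 2.78 and 2.92, and no called gene of the anterior endoderm list is above 0.

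Other genes were ranked by how closely their pattern over the 6 samples followed that of each called gene. The measure was the Euclidean distance between log2 values (CPM, counts scaled to the sample total, plus 0.5, relative to the mean of DMSO). Among the 11257 genes compared, Csn3, a casein gene, was at a distance of 0.330 from Gbx2 and Adgra3, an adhesion receptor, at 0.494. Csn3 had 0 and 1 reads with DMSO, 133 and 134 with 25 nM RA, then 189 and 157 with 1 µM RA, and the added 0.5 limits its rise on this scale. The genes nearest to Otx2 were Jag1 (0.0913), a Notch ligand, Lrrc4 (0.0996) and Lbh (0.124). Its pattern was widely shared, with 294 genes within a distance of 0.5. Distances around Otx2 are smaller because its change is smaller, so they cannot be compared with those around Gbx2. For Otx1 the nearest were Tns2 (0.0609), Sp2 (0.0876) and Icosl (0.0937), and 769 genes lay within 0.5. The level of Otx1 is close to the value added, which brings its pattern toward no change.

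The nearest genes on either side of these genes were examined as well. Agap1, 32679 bases from Gbx2, had log2 fold changes of 0.04 (SE 0.052, edgeR adjusted p 0.87) and -0.20 (SE 0.053, called) where Gbx2 had 3.13 and 3.66. Asb18, on the other side of Gbx2 at 21501 bases, had at most 1 read in any sample. Tmem260, 142546 bases from Otx2, was not called, with 0.09 (SE 0.091) and 0.10 (SE 0.091). The neighbours of Otx1, Wdpcp and Ehbp1, were not called either. Six3os1, the antisense RNA gene beside Six3, had 5 to 13 reads and was not called. Appl1, below Hesx1 in coordinates, was called at 1 µM RA with -0.13 (SE 0.052). Insig1, a regulator of sterol synthesis 87033 bases from En2, rose by 0.13 (SE 0.048, edgeR adjusted p 0.080) and 0.18 (SE 0.048). Cnpy1, on the other side of En2 at 28652 bases, was not called, with 0.19 (SE 0.093) and 0.13 (SE 0.094).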

How the data were processed

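Libraries of ribosome-depleted total RNA were read as single-end reads. Per the labels and the study's methods, the authors used TopHat2 2.0.13, Bowtie2 2.2.5.0 and Partek 6.6 with the mm10 genome. Expectation-maximization then gave the authors' estimated counts per transcript, which are not normalized and often fractional, and RPKM values that the authors scaled by transcript length and sample. Here both were summed per gene. The rounded estimated counts were tested in edgeR 4.0.16 (R 4.3.3) by the likelihood ratio test named in the methods, with TMM normalization, filterByExpr, all 6 samples in a single fit and Benjamini-Hochberg adjustment over 15143 genes or 22074 transcripts. Alternatives tried were DESeq2 1.42.0, the quasi-likelihood test of edgeR, other scalings, filters and thresholds, a replicate block and leaving out each sample. Scripts were tested on simulated data. Genes were named by a rule (the 8 genes, their neighbours, and the 2 most changed called genes of each list at each dose) with a few references, and hindbrain factors, marker genes and similar genes beyond it were named after their values were seen. The 8 genes and all lists were chosen with earlier results of these data known. Set against sampling noise the duplicates had a median chi-square per gene of 0.837 to 1.02, where 0.455 is expected, and were counted separately. Sequences are from RefSeq (GRCm38.p6) and exons from GENCODE. No protein sequence was used here. Results for some genes were left out of the lists and the text and are not given here.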

Additional observations from a re-analysis of the deposited data

How the results depend on the processing

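Gbx2 and Otx2 kept their direction and call in all 15 alternatives at both doses, and Gbx2 also between the doses. With the study's thresholds on gene sums 72, 107 and 5 genes were called (25 nM RA, 1 µM RA and between the doses), and 1, 1 and 0 of the 8. DESeq2 called 567, 1594 and 158 genes and gave no adjusted p for Otx1 at 1 µM RA, while the quasi-likelihood test called 336 genes between the doses, and 272, 873 and 2 transcripts. At an adjusted p under 0.05, 340 genes were called between the doses. Leaving out 1 sample gave 799 to 1345, 1922 to 2839 and 205 to 577 genes and, of the 8, 2 to 2, 2 to 3 and 1 to 1. The fold change of En2 changed sign at 25 nM RA (-0.0697 to 0.124 with 1 sample left out), at 1 µM RA (-0.161 to 0.0678) and between the doses (-0.201 to 0.0294). That of NM_144841 was 0.0852 without 1 µM RA replicate 1 and -0.96 without replicate 2, alternatives chosen after seeing the data. The causes were not tested. Same-numbered samples did not deviate together (correlations -0.041, 0.048 and -0.062), and with the replicate number as a block 1138, 2756 and 423 genes were called and no call among the 8 changed. A permutation test of 2 against 2 samples cannot pass 0.05, and Gbx1, Six3, Hesx1 and En1, with at most 9 reads per sample, passed only weaker filters on low counts.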
